A study of Mus musculus with 33 samples.

Results

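Hematopoietic stem cells (HSCs) taken from old mice 2 months after nicotinamide riboside was stopped were compared with HSCs from old mice still receiving it. The comparison rests on 7 of the 33 libraries of the series. They are the 3 libraries labelled O-NR-RC and the 4 labelled O-NR among the HSCs of cohort 1, and they were chosen by these labels alone. Both groups are old wild-type C57BL/6 mice, 24 to 29 months of age according to the methods, and both were given nicotinamide riboside (NR) in the drinking water, for 4 to 6 weeks in O-NR. O-NR-RC mice then had a washout of 2 months before their HSCs were sorted, while the 2 O-WT libraries of the cohort come from old mice without NR. The age of each group at sampling and the length of NR treatment before the washout were not given separately, so withdrawal and the time that passed cannot be told apart. HSCs were sorted as viable Lin- cKit+ Sca1+ CD34- Flk2- CD150+ bone marrow cells, and total RNA was sequenced with a stranded kit for low input. The labels do not say whether each library is a separate mouse, so the p-values measure the spread between these libraries, which may in part be technical.

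NR is a form of vitamin B3 from which cells make NAD+, the coenzyme of redox metabolism and the substrate of sirtuins and PARP enzymes. HSCs sit at the top of blood formation, and with age they divide and differentiate less evenly and give more myeloid and platelet cells. They respond to interferons, cytokines of the antiviral response, by inducing a common set of antiviral genes, and interferon exposure can drive HSCs out of quiescence. The question the comparison addresses is which transcripts differ between HSCs of mice on NR and HSCs of mice that no longer receive it.

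The 9 HSC libraries of cohort 1 held between 8897256 and 23816042 counted reads. The transcripts that define the sorted population were present in all of them. Slamf1, which encodes the CD150 antigen used in the sort, lay between 58.3 and 83 CPM in the 17 HSC libraries of the series, between 1.07 and 12.3 in the 8 CLP libraries and between 0.782 and 3.39 in the 8 GMP libraries. Procr, the receptor EPCR, lay between 62.4 and 109 CPM in HSCs and reached 2.89 in CLPs and 1.12 in GMPs. These levels, and those given below for single transcripts, are background-subtracted CPM, that is, counts scaled to the total of the library after the reads expected from genomic DNA had been taken away. They do not correct for transcript length, so they are compared between libraries and not between genes.

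Genomic DNA reads were measured in each library through the olfactory (Olfr) and vomeronasal (Vmn1r, Vmn2r) receptor genes, 1971 in all, which serve the sense of smell and are not known to be transcribed in blood cells. Their summed CPM was 14390, 14280, 6423 and 5606 in O-NR 1 to 4 and 4445, 15260 and 14610 in O-NR-RC 1 to 3. It was 6360 and 9082 in the O-WT libraries and at most 8303 in the 24 libraries of cohort 2. Both groups therefore held libraries of both kinds, with O-NR 1 and 2 and O-NR-RC 2 and 3 above 10000 CPM and O-NR 3 and 4 and O-NR-RC 1 below. If the same density of reads lay on all exons, background would make up 12.1% to 31.2% of the counts in O-NR and 9.63% to 33% in O-NR-RC. The group means of the summed receptor CPM, scaled as in the fits below, differed by 0.04 on the log2 scale (two-sided exact permutation test over 35 regroupings, p = 0.971, smallest possible 0.0286).

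**Figure D1:**
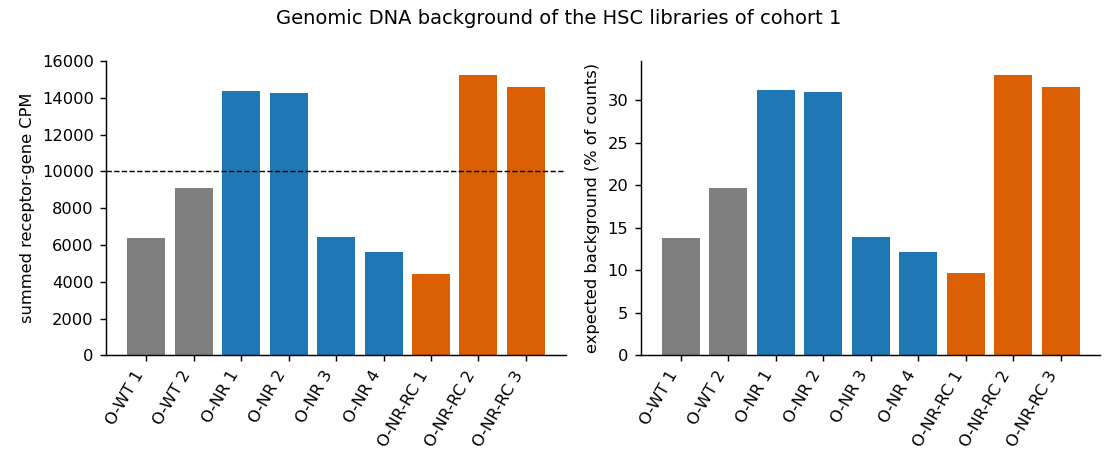
Left, summed CPM of the Olfr, Vmn1r and Vmn2r genes in each HSC library of cohort 1 (bars, O-WT grey, O-NR blue, O-NR-RC orange), with a dashed line at 10000 CPM. Right, the percent of each library's counts that this background would account for. O-NR 1 and 2 and O-NR-RC 2 and 3 stand above the line, with 30.9% to 33% of counts, and the other 5 libraries below it, with 9.63% to 19.7%.

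The largest differences between libraries ran along the classes of receptor sum and not along treatment. In log2 CPM of the 31765 genes that passed the filter (more than 3 CPM in at least 3 of the 7 libraries), the first principal component of the 9 libraries held 76% of the variance. The 4 libraries above 10000 receptor CPM lay between 57.6 and 67.7 on it, and the other 5 between -90.8 and -6.7. Of the summed squared distances between the 7 libraries, 78.6% lay between these 2 classes. After subtraction of the expected background 80.2% did, over the 14366 genes above 3 times that background in at least 3 of the 7 libraries. The share of mitochondrial reads (4.59% to 5.29% against 6.69% to 8.14%) followed the same split, as did the counted reads of the 7 O-NR and O-NR-RC libraries, and the part of each was not tested. Between O-NR-RC and O-NR lay 4.73%, against a median of 9.66% over the 35 regroupings (one-sided exact permutation test, p = 0.857). With the receptor sum regressed out of every gene the share between the groups was 23.7%, the largest of the 35 regroupings (one-sided exact permutation test, p = 0.0286, the smallest they can give). Regression lowers the share of regroupings that follow the receptor sum, up to 78.6% before it, and the groups hardly differed in that sum. The 35 regroupings are then not on an equal footing, so this p cannot decide whether the groups differ. Because the libraries differed most by class of receptor sum, each result is given from 2 fits. The primary one has no background term, and the other has the log2 receptor sum as a covariate.

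In the fit without a background term, edgeR's quasi-likelihood test found 8 transcripts with an unadjusted p below 0.01, the threshold of the study. All 8 were higher in O-NR-RC, which is 0.0252% of the genes tested, and none was lower. After Benjamini-Hochberg adjustment no transcript was below 0.05 (smallest adjusted p = 0.732), 76 had an unadjusted p below 0.05, and DESeq2 called 2 after adjustment. The 8 transcripts were S100a9, S100a8, Ngp, Ltf and Lcn2, which encode proteins of neutrophil granules and cytosol, Ighm and Igkc, the constant regions of immunoglobulin M and of the kappa light chain, and Hbb-bs, a beta globin. Leaving out O-NR-RC 1, the library with the most reads and the least background, raised the count to 117, with 23 higher (0.0724%) and 94 lower (0.296%). With the receptor covariate 208 transcripts were higher (0.655% of those tested) and 199 lower (0.626%), the 8 among them. The 407 in all (1.28%) compare with 317.7 that uniform p-values would give. Of these 16 (0.0504% of the genes tested), 13 higher and 3 lower, had an adjusted p below 0.05, so that most transcripts described below as having risen or fallen with the covariate passed the unadjusted threshold only. A fold change above 1.5 as a further limit left the 8 in the fit without a background term and 102 in the covariate fit, 43 higher and 59 lower, with 5 neutrophil transcripts and 6 of the 17 interferon-stimulated ones described below. The covariate fit without O-NR-RC 1 gave 136 calls, 36 higher (0.113%) and 100 lower (0.315%).

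Neutrophil transcripts rose in both fits. Of the 12 members of the neutrophil list 11 were tested, and 5 of these rose after withdrawal, with and without the covariate, where 0.655% and 0.0252% of all genes rose. S100a9, a subunit of the alarmin calprotectin, stood at 2.47, 2.44, 1.77 and 0.208 CPM in O-NR 1 to 4 and at 6.92, 15.2 and 23.7 in O-NR-RC 1 to 3. Every O-NR-RC library lay above every O-NR library, and its log2 fold change was 2.40 ± 0.37 (SE; adjusted p = 0.732) without the covariate and 2.39 ± 0.25 with it (adjusted p = 8.07e-05). The O-WT libraries stood at 1.38 and 5.53 CPM, the first within the O-NR range and the second between the groups. Groups that did not overlap, with O-NR-RC higher, were found for 1.29% of the 14366 genes that stood above 3 times their expected background in at least 3 of the 7 libraries. S100a8, its partner subunit, stood at 3.84, 6.15, 2.2 and 1.56 CPM in O-NR and at 3.87, 11.3 and 13.3 in O-NR-RC, where O-NR-RC 1 lay within the O-NR range. Its log2 fold change was 0.98 ± 0.19 with the covariate (adjusted p = 0.0493).

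Ngp, a neutrophil granule protein, stood at 7.95, 10.5, 6.48 and 4.63 CPM in O-NR and at 8.49, 24.8 and 33.4 in O-NR-RC. Ltf, which encodes the iron-binding granule protein lactoferrin, stood at 19.6, 17.3, 11.4 and 9.41 CPM in O-NR and at 12.9, 37 and 56.9 in O-NR-RC. For both, O-NR-RC 2 and 3 were above all other libraries and O-NR-RC 1 was within the O-NR range, yet above the 2 O-NR libraries of its own background class. Within the libraries above 10000 receptor CPM the log2 ratio of O-NR-RC to O-NR was 1.61 for Ngp and 1.32 for Ltf, and within those below it was 0.57 and 0.29. Lcn2, the siderophore-binding protein lipocalin 2, was at most 1.37 CPM in O-NR and reached 9.38 in O-NR-RC 3. It did not pass the limit of 3 times background. Without subtraction Lcn2 stood between 3.71 and 5.9 CPM in O-NR and at 5.49, 7.87 and 9.98 in O-NR-RC, so that the groups overlapped. With the covariate the rise passed p below 0.01 in each of the 7 fits that left out a library for S100a8, S100a9, Ngp, Ltf and Lcn2, with a largest unadjusted p of 0.00445.

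These are low levels for neutrophil transcripts. The list summed to 53.4, 159 and 196 CPM in O-NR-RC and to 37.1 to 88.6 in O-NR, against 50.8 and 75.2 in O-WT. The other neutrophil transcripts tested, such as Camp (log2 fold change 0.36 with the covariate, adjusted p = 0.823), Mmp8 (0.10) and Retnlg (-0.12), did not pass. Transcripts of granulocyte-monocyte progenitors did not go with them. Of the 16 tested members of the GMP list none rose and 1 fell with the covariate, Csf3r, the receptor of the neutrophil growth factor G-CSF (log2 fold change -0.31). Mpo, the primary granule enzyme of GMPs, stood between 7.33 and 15.5 CPM in O-NR and at 4.38, 23.3 and 25.6 in O-NR-RC (log2 fold change 0.11, adjusted p = 0.933), against 14300 to 16700 CPM in sorted GMPs. Elane, the neutrophil elastase gene, was below 1 CPM in every one of these 7 libraries. A rise within HSCs and transcripts carried by other cells of the sorted fraction cannot be told apart in bulk libraries, nor can fewer cells and less RNA per cell.

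**Figure D2:**
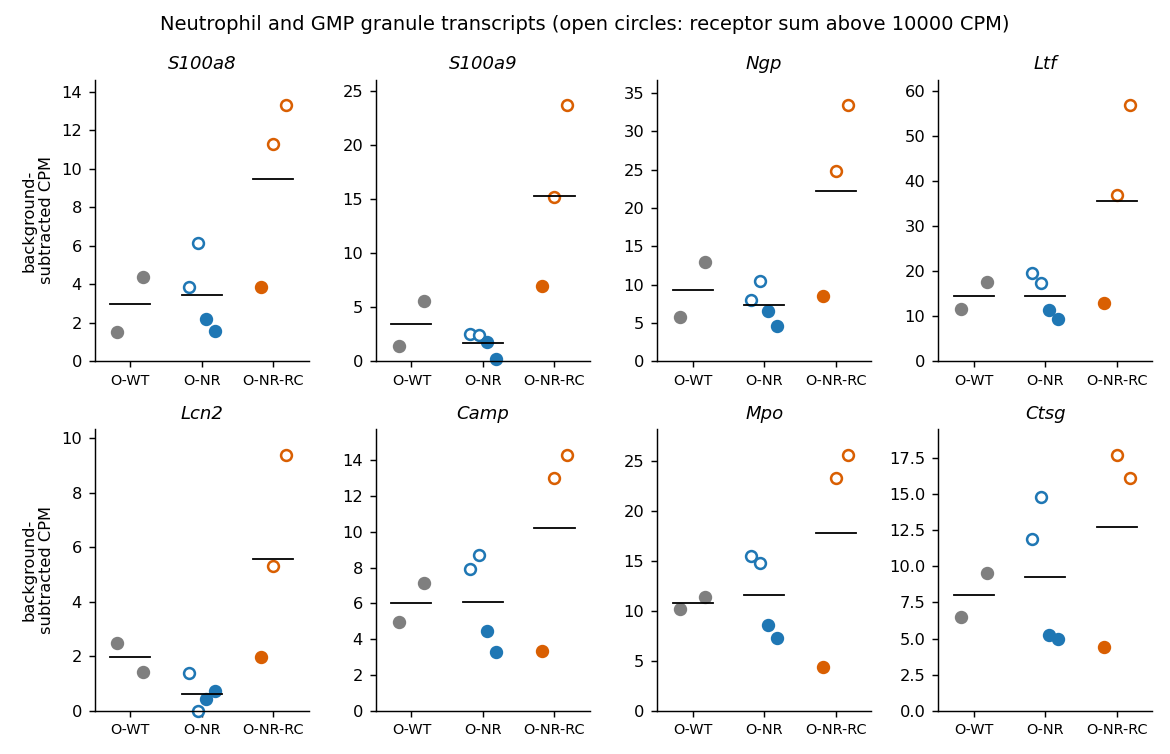
Background-subtracted CPM of neutrophil transcripts (S100a8, S100a9, Ngp, Ltf, Lcn2, Camp) and of 2 granule transcripts of GMPs (Mpo, Ctsg) in the HSC libraries of cohort 1. Each circle is a library, open where its receptor sum was above 10000 CPM, and each line is a group mean. S100a9 is higher in the 3 O-NR-RC libraries (6.92 to 23.7 CPM) than in the 4 O-NR libraries (0.208 to 2.47), while the O-NR-RC library of low background lies within or below the O-NR range for S100a8, Ngp, Ltf, Camp, Mpo and Ctsg.

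The immunoglobulin transcripts Ighm and Igkc and the globin Hbb-bs rose in both fits and were uneven among the O-NR-RC libraries. Ighm stood between 1.87 and 5.61 CPM in O-NR and at 61.5, 5 and 236 in O-NR-RC, so that O-NR-RC 2 was at the O-NR level and the other two far above it. Igkc stood at 19.9, 3.98, 15.8 and 1.04 CPM in O-NR and at 21.2, 32.3 and 219 in O-NR-RC. No other member of the B and plasma cell list passed in either fit among the 13 tested. The defining B cell transcript Cd79a was at most 2.34 CPM, Jchain of plasma cells was at most 5.78, and Mzb1 was at 0 in all 9 libraries. High and uneven Ighm was also found in HSCs of mice that never received NR. In cohort 2 it lay between 18.3 and 433 CPM in O-WT and between 0.841 and 14.9 in O-NR. Hbb-bs stood at 29.6 CPM in O-NR-RC 1, at 3.59 and 3.81 in the other O-NR-RC libraries and between 1.4 and 2.69 in O-NR, and its log2 fold change dropped from 2.46 to 0.25 without O-NR-RC 1. Hba-a1, an alpha globin that was not tested, was at 11.9 CPM in the same library and below 1 in the other 6 of the O-NR and O-NR-RC libraries, with 8.82 in one O-WT library. Of 15 tested members of the erythroid list, 9 were below 0 with the covariate. Besides Hbb-bs it held 1 call, a fall of Car2 (log2 fold change -0.43 ± 0.13, adjusted p = 0.708), where 0.626% of all genes fell.

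Interferon-stimulated transcripts were lower in O-NR-RC. All 31 members of the list were tested, and the log2 fold change was below 0 for 31 of 31 in both fits, with a median of -0.37 without the covariate and -0.32 with it, where the median over all genes was 0.02 and 0.00. Without the covariate none of the 31 had p below 0.01. With it 17 of the 31 fell and none rose, against 0.626% of all genes tested. The 17 were Ifi27, Ifi44, Oasl2, Ifit2, Oas2, Oas3, Stat2, Ifit1, Zbp1, Rtp4, Oas1a, Irf7, Irf9, Isg15, Usp18, Xaf1 and Ifit3, and Ifi27 alone had an adjusted p below 0.05. They cover the parts of the response, from its transcription factors (Stat2, Irf7, Irf9) through sensors and enzymes that act on viral RNA (Oas1a, Oas2, Oas3, Ifit1, Ifit2, Ifit3) to its feedback inhibitor Usp18. Members of the list are induced by the same factors, so they do not vary independently, and their number carries no test.

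Ifi27, an interferon-induced mitochondrial protein, stood at 19.9, 30.3, 22.5 and 16.8 CPM in O-NR 1 to 4 and at 10.7, 14.4 and 16.2 in O-NR-RC 1 to 3. The groups did not overlap at these levels but did in CPM without subtraction. The log2 fold change with the covariate was -0.65 ± 0.12 (adjusted p = 0.0428). Ifi44 stood at 27.8, 50.9, 37.3 and 36.9 CPM in O-NR and at 20.9, 19.5 and 21.8 in O-NR-RC (log2 fold change -0.60 ± 0.12, adjusted p = 0.0858). Oasl2, of the oligoadenylate synthetase family, stood at 67.3, 103, 91.4 and 90.5 CPM in O-NR and at 57.9, 59.7 and 53.6 in O-NR-RC (-0.54 ± 0.11, adjusted p = 0.115). In both cases the O-NR-RC libraries lay close together and under the lowest O-NR library, O-NR 1. Ifit2, which binds RNA and slows its translation, stood at 35.8, 40.4, 40.1 and 40.6 CPM in O-NR and at 30.2, 22.2 and 30 in O-NR-RC (-0.40 ± 0.09, adjusted p = 0.211). Oas3 stood at 28.7, 41.5, 36.1 and 34.2 CPM in O-NR and within 25 to 25.5 in O-NR-RC (-0.32 ± 0.09, adjusted p = 0.658). Isg15, a ubiquitin-like protein, was lower in level, at 3.02, 3.8, 2.99 and 4.73 CPM in O-NR and at 1.75, 1.72 and 1.91 in O-NR-RC (-0.67 ± 0.21, adjusted p = 0.708).

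**Figure D3:**
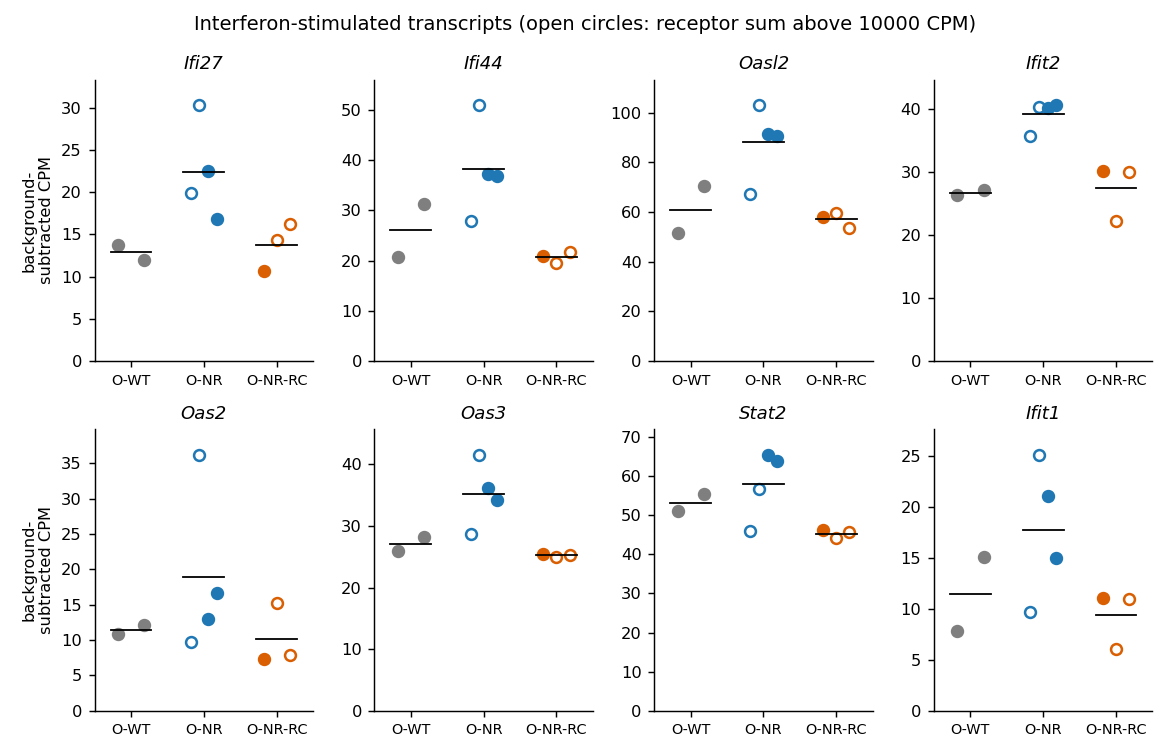
Background-subtracted CPM of the 8 interferon-stimulated transcripts with the smallest p in the covariate fit, in the HSC libraries of cohort 1 (circles, open where the receptor sum was above 10000 CPM, with lines at the group means). For Ifi27, Ifi44, Oasl2, Ifit2 and Oas3 all 3 O-NR-RC libraries lie below all 4 O-NR libraries, and for Oas2, Stat2 and Ifit1 the groups overlap.

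The summed level of the list was 1070, 1270, 1480 and 1490 CPM in O-NR 1 to 4 and 998, 997 and 960 in O-NR-RC 1 to 3. It was 936 and 1190 in O-WT. Of the 30 members that stood above 3 times their expected background, the groups did not overlap in background-subtracted CPM for 12, all lower in O-NR-RC, against 0.87% of the 14366 genes of that kind. In CPM without subtraction the groups did not overlap for 2 of the 31, both lower, against 0.378% of all genes tested. Among the libraries above 10000 receptor CPM, 24 of the 30 were lower in O-NR-RC 2 and 3 than in O-NR 1 and 2 (median log2 ratio -0.28, where all genes gave 0.07). Among those below, 30 of 30 were lower in O-NR-RC 1 than in O-NR 3 and 4 (median -0.53, all genes -0.06). Lower values in both classes were found for 24 members (80% of them) and for 19.4% of all such genes. The members lower in the second class only included Irf1, Iigp1, Gbp2 and Isg20. The second class held a single O-NR-RC library.

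**Figure D4:**
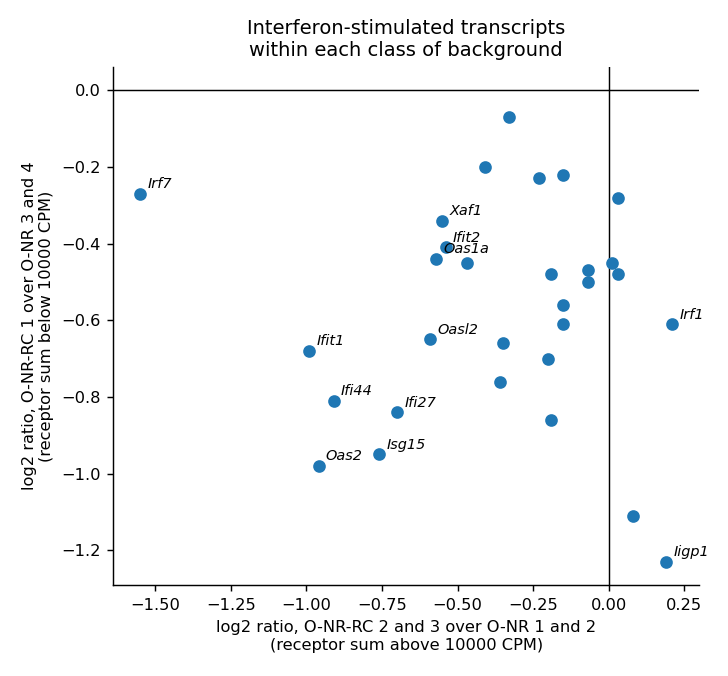
Log2 ratio of background-subtracted CPM, O-NR-RC over O-NR, for 30 interferon-stimulated transcripts (points) in the 4 libraries with a receptor sum above 10000 CPM (horizontal axis) and in the 3 libraries below it (vertical axis). All 30 points lie below 0 on the vertical axis and 24 lie below 0 on both, with Irf7 at -1.55 on the horizontal axis and Iigp1 at -1.23 on the vertical.

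The number of members called changed with the treatment of background. Subtracted counts gave 4 of 30 lower without the covariate (0.0626% of all genes tested there) and 16 of 30 with it (1.07%). A factor for the 2 classes in place of the covariate gave 8 of 31 (0.305%), DESeq2 with the covariate gave 9 (0.208%), and the covariate fit of the 7 libraries alone gave 20 (1.17%). Leaving out 1 library of the 7 in the covariate fit gave between 10 and 19, where between 100 and 229 of all 31765 genes tested were called lower. At least 29 of the 31 were lower in each of these. The smallest counts, 10, came without O-NR-RC 1 or O-NR-RC 3, with 100 and 175 lower calls over all genes.

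The list was also set beside O-WT. With the covariate 9 of the 31 were higher in O-NR than in O-WT and none lower (0.371% and 0.992% of all genes), with a median log2 fold change of 0.30. None was called between O-NR-RC and O-WT, where 0.469% of all genes were higher and 0.778% lower (median -0.05). Without the covariate none was called in either contrast, where 0.0126% and 0.0157% of all genes were higher and lower in O-NR and 0.0378% and 0.0346% in O-NR-RC (medians 0.26 and -0.17). Oasl2 stood at 51.5 and 70.5 CPM in the O-WT libraries, Ifi44 at 20.7 and 31.3, Ifi27 at 13.8 and 12, and Ifit2 at 26.3 and 27.2. The first of these contrasts shares the O-NR libraries and the second the O-NR-RC libraries with the comparison above, and O-WT holds only 2 libraries. In the HSCs of cohort 2, with 4 libraries on each side and less background, O-NR against O-WT called 2 of the 31 as higher, Rsad2 and Rtp4 (0.49% of all genes higher, none with an adjusted p below 0.05), and the median of the list was 0.04. There Oasl2 lay between 57.3 and 94.3 CPM in O-NR and between 64.8 and 81.8 in O-WT. The cohort 2 values were added after those of cohort 1 had been seen.

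Interferon-stimulated genes are switched on through a sequence element, the ISRE, to which Irf9, in a complex with STAT proteins, and other IRF proteins bind. Its core was searched as GAAA, any 2 bases and GAAA on either strand in the 250 bases before the start of each gene, from RefSeq promoter sequences of GRCm38.p6. Of all 27025 genes with an entry, 3.04% held it. Of the 31 members of the list 21 had an entry and 11 of these (52.4%) held it. Of the 17 that fell in the covariate fit 12 had an entry and 6 held it. A match to these letters is not a measured binding site, and members without one in this window, such as Oasl2, Ifi44 and Ifit2, are not shown by this to lack one. The 5 with the smallest p are shown because they are members that fell and carry the core. Each stretch is printed on the strand of its gene, 5′ to 3′, with the core in capitals, which starts with TTTC where it lies on the opposite strand.
Oas3: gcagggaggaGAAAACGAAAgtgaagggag
Stat2: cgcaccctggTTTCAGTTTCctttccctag
Ifit1: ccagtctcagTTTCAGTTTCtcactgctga
Oas1a: tcgggaaatgGAAACTGAAAatct
Isg15: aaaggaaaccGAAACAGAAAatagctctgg

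The Oas3 stretch is chr5:120777715-120777744 on the minus strand and the Oas1a stretch chr5:120907526-120907549 on the minus strand. Stat2 is chr10:128270266-128270295 and Ifit1 chr19:34640794-34640823, both on the plus strand, and Isg15 is chr4:156200865-156200894 on the minus strand. All lie upstream of the start of the gene. The core ended 4 bases before the start in Oas1a, 56 in Isg15, 65 in Oas3, 75 in Ifit1 and 212 in Stat2. Isg15 held 3 cores in the window and Oas1a 2, and in both the core shown shares 4 bases with the one before it, and Ifit1 held 2.

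Further transcripts fell in the covariate fit. Slfn2, of the interferon-inducible Schlafen family, stood at 37, 67.6, 39.8 and 72 CPM in O-NR and at 27.1, 28.1 and 31.1 in O-NR-RC (log2 fold change -0.88 ± 0.16, adjusted p = 0.0428). Slfn8, of the same family, stood at 52, 64.1, 66.9 and 63.5 CPM in O-NR and at 51.9, 44.8 and 40.4 in O-NR-RC, and Rnf213, a ubiquitin ligase that interferon induces, at 413, 615, 514 and 613 and at 395, 347 and 353. The 3 were named by a rule that required groups not to overlap in background-subtracted CPM. Of the 14366 genes above 3 times background 0.87% did not overlap with O-NR-RC lower. O-NR-RC 1 reached O-NR 1 within 0.1 CPM for Slfn8, and in CPM without subtraction the groups overlapped for all 3. The third transcript with an adjusted p below 0.05 and a fall was Lars2, the mitochondrial leucyl-tRNA synthetase, at 436, 530, 335 and 315 CPM in O-NR and 227, 291 and 279 in O-NR-RC (-0.60 ± 0.10, adjusted p = 0.0114). Kcnk5, a potassium channel, stood between 56.6 and 74.9 CPM in O-NR and at 37.9, 54.4 and 48 in O-NR-RC (-0.52 ± 0.11, adjusted p = 0.0999).

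Among the transcripts that rose with the covariate and not without it, Klrb1c, the NK cell receptor known as NK1.1, was higher in every O-NR-RC library than in any O-NR library. Klrb1c, Sox13, Acer2 and Mmp14 were named by a rule that required such groups without overlap. Klrb1c stood at 39.8, 38.1, 26.6 and 24.4 CPM in O-NR and at 46.4, 55 and 52.3 in O-NR-RC (0.58 ± 0.10, adjusted p = 0.0343), with the O-WT libraries at 33.1 and 31.6. The NK and T cell list held no other call among 13 tested. Sox13, a transcription factor, stood at 16.7, 19.8, 25.7 and 27.4 CPM in O-NR and at 56.9, 28.9 and 27.5 in O-NR-RC (0.60 ± 0.10, adjusted p = 0.0282), so that O-NR-RC 3 and O-NR 4 almost met. Acer2, an alkaline ceramidase, stood at 21.3, 23.3, 19.4 and 16.7 CPM in O-NR and at 36.6, 34.1 and 33.7 in O-NR-RC (0.54 ± 0.11, adjusted p = 0.115). Mmp14, a membrane metalloproteinase, was 113 CPM in O-NR-RC 1 and 64.1 and 59.1 in the others, against 44.4 to 57 in O-NR. Ramp2 and Gem also had an adjusted p below 0.05, and both were highest in O-NR-RC 1, at 46.5 and 93.2 CPM. The gene models Gm21887 and Gm47283 passed as well, but they lie on the sex chromosomes among near-identical copies that can share reads, so their counts are uncertain.

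Glucocorticoid-responsive transcripts had the second highest median of the lists, 0.27 without the covariate and 0.23 with it. None of the 14 tested passed without it, and with it 5 rose, Per1, Pik3ip1, Tsc22d3, Fkbp5 and Klf9, against 0.655% of all genes tested. Without O-NR-RC 1 and without the covariate the log2 fold change of all 5 was below 0. Per1, a component of the circadian clock that glucocorticoids induce, stood at 50.7, 49.4, 69.1 and 63.2 CPM in O-NR and at 169, 78.4 and 85.2 in O-NR-RC (0.79 ± 0.18, adjusted p = 0.247). Tsc22d3, which encodes the glucocorticoid-induced leucine zipper GILZ, stood at 43.9, 38.5, 62.9 and 63.5 CPM in O-NR and at 144, 53.1 and 51.5 in O-NR-RC. O-NR-RC 1 was the highest of the 7 libraries in both, O-NR-RC 2 and 3 lay within the O-NR range for Tsc22d3, and one O-WT library reached 198 and 126 CPM while the other stood at 57.5 and 46.7. Without O-NR-RC 1 the covariate fit called 1 of the 14. Nr1d2, a clock repressor, also rose with the covariate (0.32), and no other member of the clock list but Per1 did.

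Transcripts of HSC identity were mostly below 0, with 19 of 25 lower in both fits and a median of -0.16 with the covariate and -0.20 without it. Of all genes 49.7% were above 0 with the covariate and 56.3% without it. Other lists leaned the same way with the covariate, with 59 of 77 oxidative phosphorylation and 17 of 19 chaperone transcripts lower. Slamf1 stood at 58.3, 79.8, 68 and 75.4 CPM in O-NR and at 61.9, 66.3 and 68 in O-NR-RC, and Procr at 66.8, 62.4, 96 and 109 and at 70.4, 70.5 and 86. Their log2 fold changes were -0.12 ± 0.10 (adjusted p = 0.927) and -0.16 ± 0.13 (adjusted p = 0.923) with the covariate, and the groups overlapped. Of 25 members of the HSC list none passed without the covariate, and with it 3 fell, Vwf and Ly6a among them, and Robo4 rose, against 0.626% and 0.655% of all genes. Vwf, the von Willebrand factor of platelet-biased HSCs, stood at 432, 460, 512 and 619 CPM in O-NR and at 283, 370 and 413 in O-NR-RC (-0.54 ± 0.18, adjusted p = 0.731). The megakaryocyte list, which also holds Vwf, leaned the other way with the covariate. Of its 17 tested members 12 were above 0 (median 0.12), and Gp5 rose (0.47 ± 0.14, adjusted p = 0.708). Ly6a, which encodes the Sca1 antigen of the sort, stood at 19.9, 21.3, 32.3 and 37.1 CPM in O-NR and at 16.2, 23.3 and 18.6 in O-NR-RC (-0.55 ± 0.19, adjusted p = 0.764). Ly6a is itself induced by interferons. Neither Vwf nor Ly6a kept an unadjusted p below 0.01 in every fit that left out a library, with a largest unadjusted p of 0.178 for Vwf and 0.554 for Ly6a. Of the 24 tested transcripts known to be higher in old HSCs, Klhl4, Gda and Sult1a1 rose and Clu and Vwf fell with the covariate. These compare with 0.655% and 0.626% of all genes, and no member had an adjusted p below 0.05. Klhl4 stood at 201, 81.4 and 66.7 CPM in O-NR-RC, against 49.9 to 78.8 in O-NR. Gda stood at 450, 278 and 255 and Sult1a1 at 176, 102 and 113, against 183 to 270 and 93.6 to 104. Leaving out O-NR-RC 1 put the log2 fold changes of Klhl4, Gda and Sult1a1 below 0 without the covariate, but not with it. Clu stood at 30.2, 65.6 and 63.4 CPM in O-NR-RC, against 65.4 to 81.8 in O-NR.

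Of 29 enzymes that make and consume NAD+ none passed without the covariate. With it Nampt, Parp9 and Nmnat1 fell, against 0.626% of all genes, and the median of the list was -0.05. Nampt, the rate-limiting enzyme of NAD+ salvage from nicotinamide, stood at 56, 52.1, 60.8 and 62.5 CPM in O-NR and at 52.7, 44.8 and 39.6 in O-NR-RC (-0.27 ± 0.08, adjusted p = 0.707). O-NR-RC 1 lay just above O-NR 2, and the O-WT libraries stood at 53.1 and 50.3. Nmnat1, which makes NAD+ in the nucleus, stood between 10.8 and 13.9 CPM in O-NR and at 7.06, 8.44 and 10.8 in O-NR-RC (-0.34 ± 0.11, adjusted p = 0.716). Parp9, a partner of the interferon response in the PARP family, had a log2 fold change of -0.29 ± 0.09 (adjusted p = 0.707). None of the sirtuins Sirt1 to Sirt7 passed, with log2 fold changes between -0.15 for Sirt4 and 0.24 for Sirt6 with the covariate. Parp1, the main DNA-damage PARP (-0.18 ± 0.10, adjusted p = 0.872), Cd38, an NAD+-consuming ectoenzyme (0.25 ± 0.10, adjusted p = 0.837), and Ppargc1a, a coactivator of mitochondrial genes (-0.11 ± 0.10, adjusted p = 0.927), did not pass either.

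Metabolic and proliferation transcripts gave few calls. Of 77 subunits of oxidative phosphorylation, 39 mitophagy transcripts, 27 of glycolysis, 22 of hypoxia and 30 of mitosis none passed in either fit, and their medians with the covariate were -0.06, -0.02, -0.04, 0.04 and 0.02. The 8 tested transcripts of the mitochondrial genome had a median of -0.02, and mt-Nd1 stood at 534, 506, 708 and 777 CPM in O-NR and 914, 552 and 658 in O-NR-RC. Of 34 DNA replication transcripts none passed without the covariate. With it Pola1 (-0.39) and Mcm2 (-0.29) fell, against 0.626% of all genes, neither with an adjusted p below 0.05. Pola1, the catalytic subunit of DNA polymerase alpha, was at 15.5 and 11.9 CPM in O-NR-RC 2 and 3 and at 44.8 in O-NR-RC 1, against 33.3 to 52.3 in O-NR. Cytosolic ribosomal proteins gave no call among 74, though 72 of them were below 0 with the covariate (median -0.10) and 62 without it (median -0.07). Heat shock and chaperone transcripts had a median of -0.14 with no call among 19. The inflammatory response list, of cytokines, their receptors and NF-kB feedback genes, had 1 call among 40, a rise of Il1r1 (0.44 ± 0.13, adjusted p = 0.707), and a median of -0.01.

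**Figure D5:**
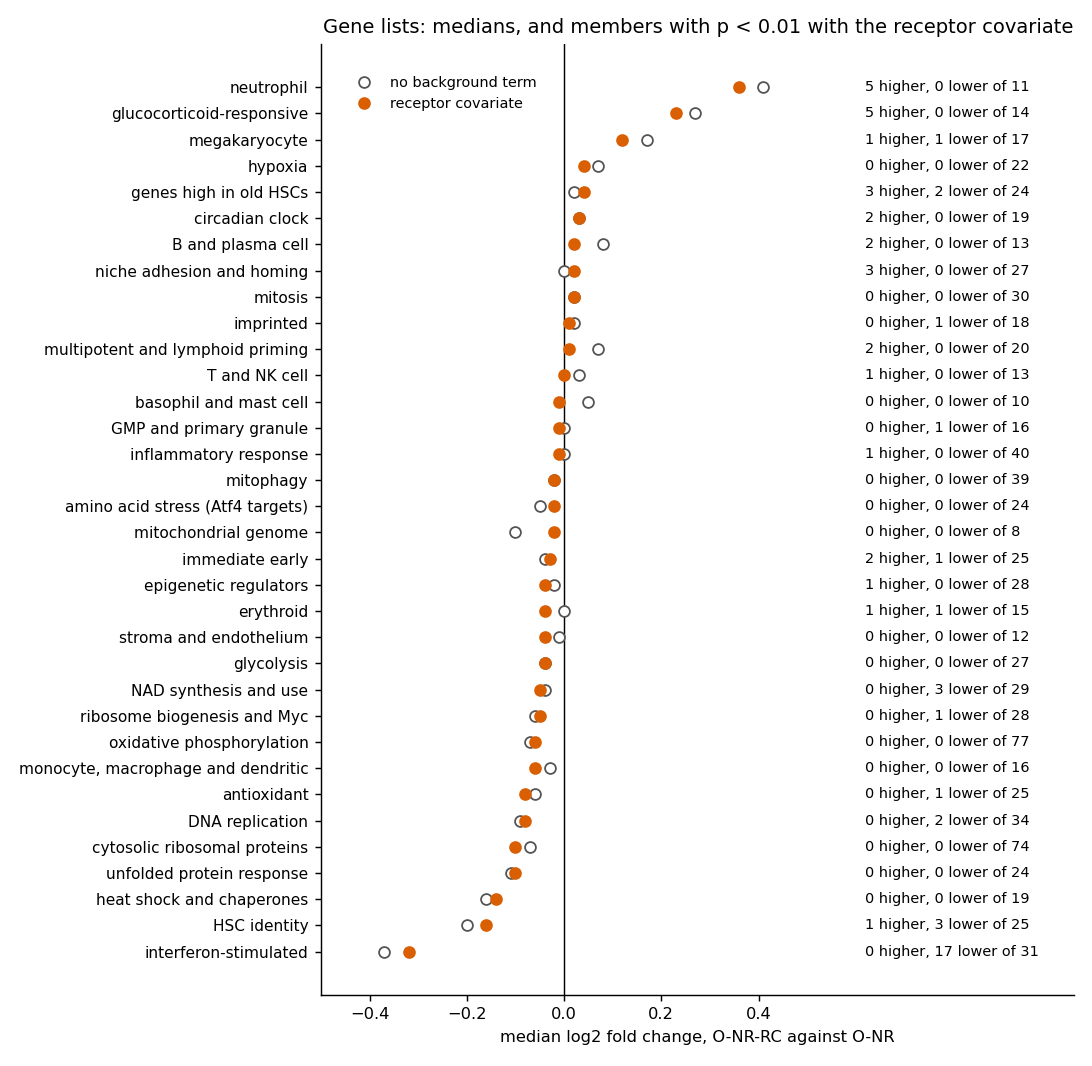
Median log2 fold change, O-NR-RC against O-NR, of each of the 34 gene lists in the fit without a background term (open circles) and with the receptor covariate (filled), with the numbers of members with p below 0.01 in the covariate fit at the right. The neutrophil list has the highest median (0.36, 5 of 11 higher) and the interferon-stimulated list the lowest (-0.32, 17 of 31 lower).

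Markers of cell types that the gate should leave out differed in level. The T cell markers Cd3e, Cd3d, Trac and Cd4 were at most 9.06 CPM in O-NR and O-NR-RC, and the T and NK cell list summed to 63.3 to 113 CPM in O-NR and to 80.1, 134 and 139 in O-NR-RC. Of the erythroid markers Klf1 was at most 2.75 CPM and Car1 at most 13.9. Of the megakaryocyte markers Pf4 and Ppbp were at most 7.38 CPM and Gp1bb was at 0, whereas Itga2b, an integrin chain that HSCs also carry, stood at 98.3, 115, 118 and 82 CPM in O-NR and at 215, 105 and 94.9 in O-NR-RC. The megakaryocyte list summed to 1430 to 1880 CPM in O-NR and 1450 to 1760 in O-NR-RC. Of the basophil and mast cell markers Mcpt8, Prss34 and Cpa3 were at most 10.8 CPM, whereas Gata2, a transcription factor of HSCs as well, stood between 266 and 430 in O-NR and between 290 and 506 in O-NR-RC. Among monocyte and macrophage markers Lyz2 stood between 54.6 and 80.1 CPM in O-NR and between 56.4 and 72.6 in O-NR-RC, Csf1r and Cd68 were at most 28.9 and C1qa at most 4.8. Of stroma and endothelium Pecam1 stood between 59.9 and 77.4 CPM in both groups, and Cxcl12 and Col1a1 were at most 30.2. Cdh5 of endothelium was 26.3 and 31.1 CPM in O-NR 1 and 2 and 29.4 and 34.6 in O-NR-RC 2 and 3 against 8.12 to 14 in the other 3. Flt3, the receptor that the gate excludes by Flk2, was 12.2 to 17.4 CPM in O-NR and 31.8, 19.1 and 22.9 in O-NR-RC (0.50 ± 0.15 with the covariate, adjusted p = 0.707). Without subtraction it was 21.2 to 23.2 CPM in O-NR and 49.2, 22.1 and 23.9 in O-NR-RC, so that the groups overlapped. Over the covariate fits that left out a library its largest unadjusted p was 0.373. The other lymphoid progenitor markers were below 0 with the covariate, Il7r at -0.14, Dntt at -0.26 and Rag1 at -0.03. Of the 20 tested members of the lymphoid priming list 11 were above 0 and 9 below (median 0.01). Only Ighm and Flt3 rose among them, against 0.655% of all genes. The part of these cells in any of the differences was not tested.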

How the data were processed

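Sorted HSCs of cohort 1 were used in 9 libraries (2 O-WT, 4 O-NR, 3 O-NR-RC), grouped by the sample labels. The values are raw counts per gene symbol (55376 symbols in each library), which the authors deposited without normalization. According to the submitters' processing notes and the paper, reads were trimmed with cutadapt, aligned with STAR to mm10 and counted with featureCounts. Counting settings for strand and multiply mapped reads are not given in the sources used here.

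Genes were kept where 3 or more of the 7 O-NR and O-NR-RC libraries exceeded 3 CPM, scaled with TMM and fitted over all 9 libraries with edgeR 4.0.16 (quasi-likelihood test, R 4.3.3). An unadjusted p below 0.01 made a call, the threshold the study names for this comparison (its methods also give a fold limit of 1.5, which was run as an alternative), with Benjamini-Hochberg adjusted p below 0.05 beside it. SE is the log2 fold change divided by the root of the F statistic. Expected background per gene was the receptor reads per exonic base (Gencode M21 on GRCm38) times the gene's exonic length, rounded counts below 0 were set to 0, and 54510 symbols had a length. Log2 ratios of levels used a pseudocount of 0.5, and principal components log2 CPM with a prior count of 2. DESeq2 1.42.0 was an alternative. Without subtraction log2 fold changes were nearer to 0 for some transcripts, such as S100a9 (2.40 against 3.13, no covariate). For others they were farther from 0, such as Hlf (-0.42 against -0.32). No pair of libraries agreed within sampling noise (lowest chi-square over its degrees of freedom, 1.78). The fits were also run on simulated counts, in which all libraries shared the same RNA profile apart from changes set for O-NR-RC. The simulation held no difference in RNA between the classes of receptor sum, so it cannot show how the fits handle that difference.

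Named transcripts are the cell type markers, up to 10 per direction with the smallest p among non-overlapping calls above 10 CPM (the same rule was applied to the covariate fit after seeing the data), the leading members of 34 gene lists, and Sirt1 to Sirt7, Parp1, Cd38 and Ppargc1a. Members and lists were chosen with earlier results of these data known. Alternatives are given in the closing section. Some transcripts are not reported here.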

Additional observations from a re-analysis of the deposited data

Results flagged for a closer look

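In 3 of 72 transcripts examined, 1 of the 4 O-NR libraries stood apart from the others by Dixon's test, which chance gives in about 1 of 20 groups. Ifit2 was 35.8 CPM in O-NR 1 and 40.1 to 40.6 in the others. Rtp4, an interferon-stimulated transcript, was 30.3 CPM in O-NR 1 and 42.6 to 45 in the others, and all 3 O-NR-RC libraries were below it. Sirt4 was 11.9 CPM in O-NR 2 and 10.4 to 10.6 in the others.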

How the results depend on the processing

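The count of transcripts with p below 0.01, 8 as reported, was 58 without the CPM filter, 25 above 1 CPM, 5 above 10 CPM, 13 with DESeq2's size factors, 18 with DESeq2, 13 after subtracting expected background and 407 with the receptor covariate. Of the alternatives chosen after seeing the data, subtracted counts above 3 times background gave 16, the same with the covariate 246, a factor for the background class 250, the covariate over 7 libraries 784 and DESeq2 with the covariate 159. Leaving out 1 library gave 5 to 117, and with the covariate 417, 577, 266 and 210 without O-NR 1 to 4 and 136, 356 and 363 without O-NR-RC 1 to 3. The lowest and highest without the covariate came from leaving out O-NR 3 and O-NR-RC 1. The count with adjusted p below 0.05, 0 as reported, was 2 with DESeq2, 16 with the covariate, 1 without the library with the highest receptor sum, 5 for subtracted counts with the covariate, 5 with the class factor, 50 over 7 libraries, 10 with DESeq2 and the covariate, 0 to 1 without 1 library, and with the covariate 2 to 28, among them 21 without O-NR 1. The cause of these moves was not tested. The difference in receptor sum reversed to as low as -0.11 and reached 0.3 without 1 library, with p of 0.4 or more. The share of distances between groups was 23.7% with the covariate regressed out.

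The labels give groups the same replicate numbers, and correlations between same-numbered libraries ran from -0.84 to 0.79. Their sign followed the classes of receptor sum, so they cannot show whether the numbers pair the libraries. A fit with the replicate block gave 8 calls and 0 after adjustment. It called 0 interferon-stimulated and 3 neutrophil transcripts.

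Ltf, S100a8 and Lcn2 lost their call without the covariate in several alternatives, Igkc without O-NR-RC 3 and Hbb-bs without O-NR-RC 1 or O-NR 4. None of the 8 reversed. Of 72 named transcripts called with the covariate, 20 changed sign without a library in the fit without it, 19 of them without O-NR-RC 1, and 1, Itgb2, did so in the covariate fit (-0.06). The libraries with high background had fewer reads left for transcripts, and the design left 6 residual degrees of freedom over the 9, or 5 with the covariate.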
